A study of Homo sapiens with 6 samples.

Results

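Complex I genes are described here in U2OS cells, a human osteosarcoma line, with and without MBTD1, a reader of methylated histone tails found in the TIP60/NuA4 acetyltransferase complex. The members are the rows whose gene symbol begins with NDUFA (which takes in NDUFAF), NDUFB, NDUFC, NDUFS or NDUFV, which gave 42 of 34602 gene rows. The groups were 3 MBTD1 KO clones made with CRISPR/Cas9 and 3 control clones, each untreated in serum-containing medium and measured on 1 Illumina bead array. Their titles call the controls "control KO", their descriptions call them control clones, and the design text names wild-type cells, so what the controls carry is not settled. Each clone can also carry changes of its own, and p-values measure the spread between these 6 clones only.

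Complex I, the NADH:ubiquinone oxidoreductase of the inner mitochondrial membrane, passes electrons from NADH to ubiquinone and pumps protons. It is L-shaped, with a matrix arm that holds the flavin and the iron-sulfur clusters and a membrane arm that holds the pumps. Core subunits are conserved from bacteria and carry out catalysis. The accessory subunits, mostly small proteins, surround the core and are needed for its assembly or stability, and assembly factors help to build it without staying in it. By class, the rows were 7 nuclear-encoded core subunits, 30 accessory subunits and 3 assembly factors. The other 2 rows were NDUFA4, now counted with cytochrome c oxidase, and its paralogue NDUFA4L2. Rows for the core subunits encoded in mitochondrial DNA were not analysed here.

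Between 37.5% and 39.0% of gene rows per array had a detection p under 0.05, and 13145 genes that reached this on at least 3 of 6 arrays were tested. Of the 42 rows, 36 were tested, and 35 of these were detected on every array; NDUFB1 was detected in 2 of 3 MBTD1 KO clones and 1 of 3 control clones. Levels are log2 background-corrected intensities, which can be compared between clones but not between genes. Differences are MBTD1 KO minus control, tested with limma, with p-values adjusted over all 13145 genes (Benjamini-Hochberg) and called at 0.05. MBTD1 itself measured 5.17, 4.99 and 4.62 in MBTD1 KO clones and 5.06, 5.05 and 5.05 in control clones. This difference of -0.13 (limma adjusted p = 0.676) does not check the edit, since where the probe lies relative to it is not known here. Of the mesenchymal and osteoblast markers of the line, 7 of 9 were tested, VIM and COL1A1 among them, while COL1A2 was detected on 0 arrays and RUNX2 on 1. The 4 blood markers were detected on 0 arrays, as were CDH1, KRT19, PECAM1, CDH5 and KDR. The other 3 epithelial markers, KRT8, KRT18 and EPCAM, were detected on all 6 arrays, and the endothelial marker VWF on 3. Of the 11 markers tested, 0 passed in limma, and KRT18 and VIM had an unadjusted p under 0.05. VIM, an intermediate filament protein, was lower in every MBTD1 KO clone than in every control clone, by at least 0.43 (difference -0.71, limma adjusted p = 0.0565). The epithelial markers KRT18 and EPCAM were also lower without overlap (differences -0.39 and -0.30), as were 13.7% of all tested genes. All other tested markers overlapped between groups, among them COL1A1, which differed by 0.35 in the other direction.

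NDUFA3, NDUFA1 and NDUFA13 rose in MBTD1 KO clones, and all 3 encode small accessory subunits of the membrane arm. They are 8.33% of the 36 tested members, against 1.2% of all tested genes called higher and 1.57% called in either direction. The count of members that fell was 0 in limma, where 0.373% of all tested genes did. At an unadjusted p under 0.05, 18 members were higher (10.1% of all tested genes) and 1, NDUFA9, was lower (10.3% of all tested genes). The 250 bases before the annotated start of each are shown because these genes stand at the upper end of the differences, with NDUFA9 at the lower end. All are from RefSeq (GRCh38.p14, plus strand, 5′ to 3′), at chr19:54102605-54102854, chrX:119871582-119871831, chr19:19515975-19516224 and chr12:4648864-4649113. Capitals mark matches, on either strand, to 4 patterns: the palindromic NRF1 motif, CCGGAAG for ETS factors, AAGATGGC for YY1 and GGGGCGGGG for SP1.
NDUFA3: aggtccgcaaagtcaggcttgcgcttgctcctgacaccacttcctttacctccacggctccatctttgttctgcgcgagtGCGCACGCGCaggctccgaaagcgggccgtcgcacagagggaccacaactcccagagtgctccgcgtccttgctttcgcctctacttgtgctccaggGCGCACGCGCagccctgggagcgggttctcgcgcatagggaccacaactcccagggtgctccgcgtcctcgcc
NDUFA1: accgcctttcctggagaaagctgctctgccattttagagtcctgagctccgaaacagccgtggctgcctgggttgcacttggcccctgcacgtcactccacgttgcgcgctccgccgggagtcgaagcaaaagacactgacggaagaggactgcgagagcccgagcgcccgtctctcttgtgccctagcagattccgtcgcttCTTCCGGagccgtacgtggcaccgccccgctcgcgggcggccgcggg
NDUFA13: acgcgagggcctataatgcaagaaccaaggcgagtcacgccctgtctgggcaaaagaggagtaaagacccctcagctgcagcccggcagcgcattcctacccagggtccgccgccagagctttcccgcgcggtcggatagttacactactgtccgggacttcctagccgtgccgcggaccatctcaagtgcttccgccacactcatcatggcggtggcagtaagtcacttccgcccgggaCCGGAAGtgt
NDUFA9: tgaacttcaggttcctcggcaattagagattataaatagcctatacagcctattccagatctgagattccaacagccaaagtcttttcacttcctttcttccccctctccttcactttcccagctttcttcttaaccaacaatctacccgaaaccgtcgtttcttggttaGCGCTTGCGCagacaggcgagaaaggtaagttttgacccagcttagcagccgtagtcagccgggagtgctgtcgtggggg
The marked runs are 2 NRF1 matches before NDUFA3, 1 ETS match each before NDUFA1 and NDUFA13, and 1 NRF1 match before NDUFA9, with no overlap. Promoter windows of 250 bases before to 50 after the start were matched for 35 members, NDUFA4 and NDUFA4L2 left aside. The NRF1 pattern was in 6 of them (17.1%, against 6.28% of 27305 gene promoters) and the YY1 pattern in 6 (17.1% against 3.03%). ETS was in 5 (14.3% against 10.7%) and SP1 in 6 (17.1% against 16%). The YY1 pattern was found at NDUFA3, NDUFA6, NDUFA7, NDUFA9, NDUFS4 and NDUFS7, which include both the highest and the lowest difference. For NDUFA3 and NDUFA9 the YY1 match reaches into the 50 bases after the start, which are not printed above. A match describes letters only.

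NDUFA3, a short single-pass protein of the membrane arm, measured 9.33, 9.63 and 9.12 in MBTD1 KO clones 1 to 3 and 7.71, 6.69 and 7.12 in control clones 1 to 3. Every MBTD1 KO clone lay above every control clone, by at least 1.41. It rose 4.55-fold (difference 2.19, standard error 0.25, limma adjusted p = 0.00766). NDUFA1, the MWFE subunit, whose loss blocks assembly of the complex, measured 9.48, 9.72 and 9.53 in MBTD1 KO clones and 8.24, 7.66 and 8.16 in control clones. The groups were 1.24 apart at their closest, and the gene rose 2.94-fold (difference 1.56, standard error 0.17, limma adjusted p = 0.00764). NDUFA13, also known as GRIM-19, measured 7.94, 7.64 and 8.01 in MBTD1 KO clones and 7.10, 6.32 and 6.71 in control clones. It rose 2.23-fold (difference 1.16, standard error 0.20, limma adjusted p = 0.0321), with a gap of 0.55 between the groups. Within the controls, control 1 exceeded control 2 by 1.02 for NDUFA3, 0.58 for NDUFA1 and 0.78 for NDUFA13. Without control 3 all 3 calls were lost (limma adjusted p = 0.0744, 0.0543 and 0.162), while the differences were 2.17, 1.64 and 1.16 and calls over all genes numbered 4 in place of 207. The call of NDUFA13 was also lost without control 2 (0.069) or without MBTD1 KO 1, 2 or 3 (0.0547, 0.0599 and 0.111). With limma's default background fit, which takes in rows of averaged probes, 0 members and 0 of all 13145 genes were called; 14 members were higher and 1 lower at an unadjusted p under 0.05, as 2260 of all genes were in either direction. The difference of NDUFA13 was 0.42 in that fit, against 2.10 for NDUFA3 and 2.06 for NDUFA1. A row described as similar to NDUFA3, LOC644482, differed by 0.24 (limma adjusted p = 0.446), and whether the probes of the pair share signal was not tested.

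The next 5 accessory subunits by size of difference did not pass the test. NDUFA2, a matrix-arm subunit with a thioredoxin-like fold, measured 9.04, 9.22 and 9.69 in MBTD1 KO clones and 8.55, 7.43 and 8.12 in control clones, a difference of 1.28 (standard error 0.28, limma adjusted p = 0.0565). NDUFB7, on the intermembrane-space face of the membrane arm, measured 8.46, 8.62 and 8.62 in MBTD1 KO clones and 7.84, 6.66 and 7.43 in control clones, a difference of 1.26 (standard error 0.26, limma adjusted p = 0.0522). NDUFC1, a small membrane subunit, measured 7.58, 7.28 and 7.41 in MBTD1 KO clones and 6.90, 5.78 and 6.25 in control clones, a difference of 1.11 (limma adjusted p = 0.0608). In each the groups did not overlap, and in each control 1 was the highest control and control 2 the lowest. NDUFA11, a membrane-arm subunit, measured 9.18, 9.21 and 9.60 in MBTD1 KO clones and 9.03, 7.58 and 8.36 in control clones, a difference of 1.01 (limma adjusted p = 0.125). Its controls spanned 1.45, more than the difference between the groups. NDUFA7, of the matrix arm, measured 7.28, 7.40 and 7.02 in MBTD1 KO clones and 6.75, 5.88 and 6.15 in control clones, a difference of 0.97 (limma adjusted p = 0.0596). With limma's default background fit the differences of NDUFC1 and NDUFA7 were 0.27 and 0.21.

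At the lower end stood NDUFA9, a nucleotide-binding accessory subunit of the matrix arm. It measured 9.03, 9.04 and 9.16 in MBTD1 KO clones and 9.57, 9.84 and 9.62 in control clones. All MBTD1 KO clones lay below all control clones, by at least 0.40, and the difference was -0.60 (standard error 0.12, limma adjusted p = 0.0511), just outside the threshold. It was called lower in 3 of 15 alternative settings, under the stricter filter, detection p below 0.01 on 6 of 6 arrays (limma adjusted p = 0.0416), with array quality weights (0.0129) and without control 1 (0.0428), and its highest adjusted p over the 15 was 0.195. The difference was -0.99 with limma's default background fit and -0.38 after scaling to a common median. NDUFB5, a membrane-arm subunit, measured 9.77, 10.13 and 10.16 in MBTD1 KO clones and 10.10, 10.34 and 10.08 in control clones, a difference of -0.15 with overlapping groups. NDUFA6, a LYR-motif protein of the matrix arm, measured 8.14, 8.05 and 7.72 in MBTD1 KO clones and 8.11, 8.09 and 8.09 in control clones, a difference of -0.13. NDUFA10, a kinase-fold subunit, measured 6.67, 6.64 and 6.87 in MBTD1 KO clones and 6.76, 6.72 and 6.73 in control clones. Its difference of -0.0067 had a 95% interval of -0.26 to 0.25. The last 3 overlapped between groups and did not pass (limma adjusted p = 0.611, 0.647 and 0.980).

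**Figure D1:**
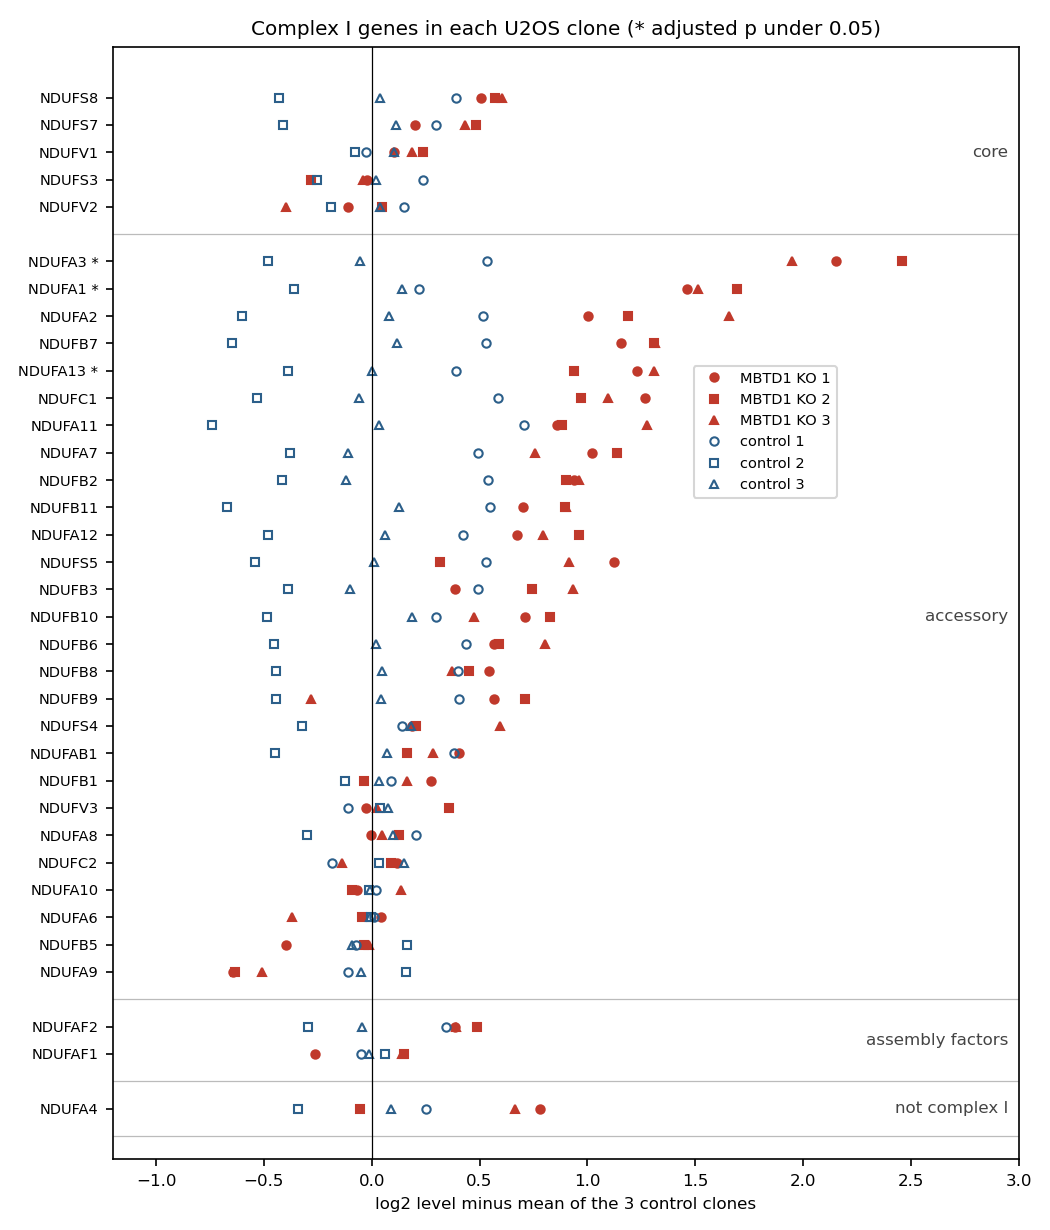
Each row is 1 tested member (35 are drawn), and the horizontal axis gives each clone's log2 level minus the mean of the 3 control clones; filled red symbols are MBTD1 KO clones 1 to 3 and open blue symbols control clones 1 to 3, with the symbol shape giving the clone number. Asterisks mark NDUFA3, NDUFA1 and NDUFA13, the 3 with a limma adjusted p under the threshold. Among accessory subunits control 1 mostly lies to the right of the other controls and control 2 to the left. In the upper rows of the accessory block the MBTD1 KO clones lie beyond control 1.

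Over all members, 29 of 36 tested members had a difference above 0 (80.6%, against 46.2% of all tested genes), and the median was 0.44, against -0.02 over all tested genes. In 17 members (47.2%) every MBTD1 KO clone lay above every control clone, against 12.2% of all tested genes. The reverse held in 1 member, NDUFA9 (13.7% of all tested genes). Among these 17, the gap was only 0.0026 for NDUFV1 and 0.0035 for NDUFS4. The members were measured in the same 6 clones, so they are not independent of each other. Without the filter on detection, all 30 accessory rows had a median of 0.55 and all 7 core rows a median of -0.09.

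Of the 6 tested core subunits, 0 passed the test in limma, and 1, NDUFS8, had an unadjusted p under 0.05. NDUFV1, which binds the flavin and oxidises NADH, measured 8.10, 8.23 and 8.18 in MBTD1 KO clones and 7.97, 7.91 and 8.09 in control clones, a difference of 0.18 (95% interval -0.08 to 0.43, limma adjusted p = 0.413). NDUFV2, an iron-sulfur subunit beside it, measured 8.87, 9.03 and 8.58 in MBTD1 KO clones and 9.13, 8.79 and 9.02 in control clones, a difference of -0.15 (interval -0.50 to 0.19). NDUFS1, the largest core subunit, with several iron-sulfur clusters, was detected in 0 of 3 MBTD1 KO clones and 2 of 3 control clones and was not tested. It measured 4.38, 4.25 and 4.43 in MBTD1 KO clones and 4.60, 4.53 and 4.29 in control clones, all near background. These 3 form the NADH-oxidising end, and neither of the tested pair passed.

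Other core subunits lead electrons to ubiquinone. NDUFS3 measured 9.93, 9.68 and 9.92 in MBTD1 KO clones and 10.19, 9.70 and 9.98 in control clones, a difference of -0.11 (interval -0.46 to 0.23). Its groups overlapped. The smallest nuclear-encoded core proteins, NDUFS7 and NDUFS8, which hold the last iron-sulfur clusters before ubiquinone, had the highest differences of the tested core subunits. NDUFS7 measured 9.16, 9.45 and 9.39 in MBTD1 KO clones and 9.26, 8.55 and 9.08 in control clones, a difference of 0.37 (interval -0.05 to 0.79). NDUFS8 measured 10.40, 10.47 and 10.50 in MBTD1 KO clones and 10.29, 9.47 and 9.93 in control clones, a difference of 0.56 (interval 0.127 to 0.995, limma adjusted p = 0.150). NDUFS8 had groups that did not overlap but did not pass over all genes. It passed in 3 of 15 alternative settings, after scaling to a common median (limma adjusted p = 0.0458), with array quality weights (0.0485) and without control 1 (0.0471), and its difference was 0.35 without control 2.

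By class, the median difference was 0.67 over 27 tested accessory subunits and 0.05 over 6 tested core subunits, 0.63 apart. Of the accessory subunits 3 rose, 0 fell and 24 did not pass (16 higher and 1 lower at an unadjusted p under 0.05), with 23 differences above 0 and 4 below. Of the core subunits 0 passed in limma (1 higher at an unadjusted p under 0.05), with 3 above 0 and 3 below. Every MBTD1 KO clone lay above every control clone in 51.9% of accessory and 33.3% of core subunits, against 12.2% of all tested genes. Of all tested genes, 1.2% were called higher, 0.373% were called lower and 46.2% were above 0. At the unadjusted p, 10.1% were higher and 10.3% lower. In each clone, the median deviation of accessory subunits from the control mean was 0.57, 0.71 and 0.76 in MBTD1 KO clones and 0.40, -0.42 and 0.03 in control clones. For core subunits it was 0.04, 0.14 and 0.07 in MBTD1 KO clones and 0.19, -0.22 and 0.07 in control clones. The accessory medians of the MBTD1 KO clones lay above all controls, with control 1 the nearest, while the core medians lay inside the range of the controls. Accessory minus core was 0.53, 0.57 and 0.68 in MBTD1 KO clones and 0.21, -0.20 and -0.04 in control clones. These class values are descriptions and carry no p. Without control 2 the median was 0.44 for accessory and 0.02 for core subunits, 0.42 apart. Without control 1 the medians were 0.87 and 0.08, 0.79 apart, and without control 3 the core median was 0.11.

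**Figure D2:**
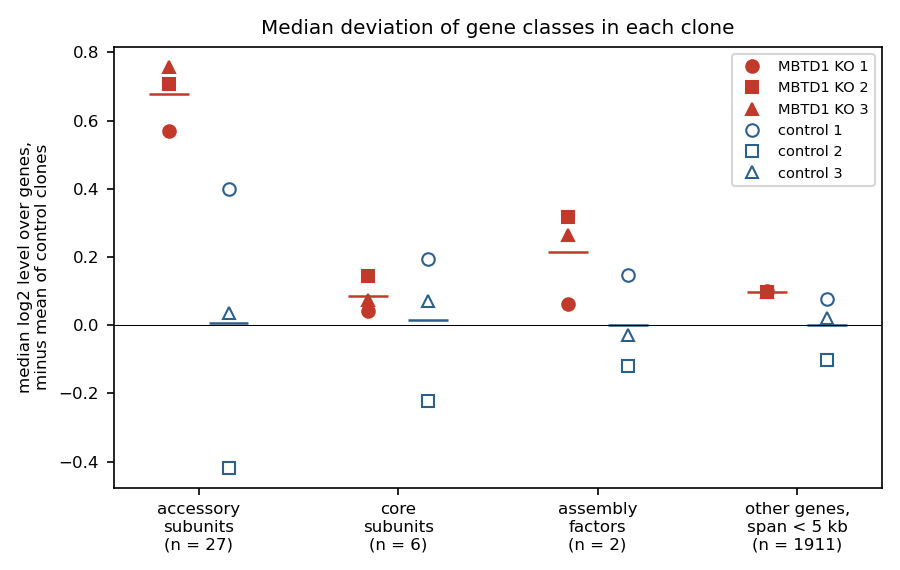
The vertical axis gives, for each clone, the median over a gene class of the log2 level minus the mean of the control clones; filled red symbols are MBTD1 KO clones, open blue symbols control clones, and bars the mean of 3 clones. MBTD1 KO clones lie at 0.57 to 0.76 for accessory subunits and at 0.04 to 0.14 for core subunits, and control clones spread from -0.42 to 0.40 for accessory subunits; the last column holds 1911 other tested genes with a gene span under 5 kb.

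Within the accessory subunits, both arms were represented. The 19 tested subunits of the membrane arm had a median difference of 0.69, with 3 called and 17 above 0. The 7 tested subunits of the matrix arm had a median of 0.33, with 0 called in limma (3 higher and 1 lower at an unadjusted p under 0.05) and 5 above 0. Of all tested genes, 1.2% were called higher, 46.2% were above 0, and 10.1% were higher and 10.3% lower at that unadjusted p. Every MBTD1 KO clone lay above every control clone in 52.6% of the membrane-arm and 57.1% of the matrix-arm subunits, against 12.2% of all tested genes. NDUFAB1, the mitochondrial acyl carrier protein found in both arms, differed by 0.28. The remaining B-series subunits, which line the distal membrane arm, differed by 0.93 (NDUFB2), 0.83 (NDUFB11), 0.69 (NDUFB3), 0.67 (NDUFB10), 0.65 (NDUFB6), 0.46 (NDUFB8) and 0.33 (NDUFB9). Their groups did not overlap for NDUFB2, NDUFB11, NDUFB10 and NDUFB6. NDUFB9 was uneven among MBTD1 KO clones, at 9.57, 9.71 and 8.71, against 9.40, 8.55 and 9.04 in control clones. NDUFB1 differed by 0.13 near background.

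The other accessory subunits ranged from 0.02 to 0.81. NDUFA12, the matrix-arm paralogue of the assembly factor NDUFAF2, differed by 0.81 and NDUFS5, on the intermembrane-space side, by 0.78. NDUFS4, a matrix-arm subunit mutated in Leigh syndrome, differed by 0.33, NDUFV3 by 0.12, NDUFA8 by 0.06 and NDUFC2 by 0.02. Of these 6, 0 passed in limma and 2, NDUFA12 and NDUFS5, had an unadjusted p under 0.05. NDUFV3 and NDUFC2 measured at most 5.12 and 4.85, near background. NDUFA5 and NDUFS6 were detected on 0 arrays and NDUFB4 on 2, and these were not tested. Rows described as similar to NDUFS5, NDUFB4 and NDUFA10 are also on the array, and, as for NDUFA3, whether their probes share signal was not tested.

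Neither tested assembly factor passed the test. NDUFAF2, which binds an intermediate in place of NDUFA12, measured 8.02, 8.12 and 8.02 in MBTD1 KO clones and 7.98, 7.34 and 7.59 in control clones. Its groups were 0.045 apart and the difference was 0.42 (limma adjusted p = 0.192). NDUFAF1, a factor of membrane-arm assembly, measured 5.65, 6.06 and 6.06 in MBTD1 KO clones and 5.86, 5.97 and 5.90 in control clones, a difference of 0.0084. NDUFAF3, a partner of NDUFAF4, measured 8.15, 8.94 and 9.08 in MBTD1 KO clones and 8.25, 7.60 and 8.13 in control clones. It was not tested, because its detection p was under 0.05 on 1 array only; the row averages several probes, and so does its detection p, which ran from 0.00711 to 0.632. NDUFA4 measured 11.01, 10.17 and 10.89 in MBTD1 KO clones and 10.48, 9.89 and 10.32 in control clones, a difference of 0.46 (limma adjusted p = 0.313), and NDUFA4L2 was detected on 0 arrays.

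No other listed gene of the pathway passed the test. Of 21 further assembly factors, given by current symbols where the array has older ones, 20 were tested and 0 passed in limma. Counted at an unadjusted p under 0.05, 3 were higher and 1 lower, against 10.1% and 10.3% of all tested genes. Their median difference was 0.06. NDUFAF8, a short factor that stabilises NDUFAF5, differed by 0.70 (limma adjusted p = 0.0987), and control 1 exceeded control 2 by 0.72 there. NDUFAF8, TMEM126A and LYRM2 were those higher at the unadjusted p, the latter pair by 0.37 and 0.36. NDUFAF6, the one lower at that p, differed by -0.34. TMEM126B, which did not reach it, differed by -0.24. Of 13 regulators of mitochondrial biogenesis, 9 were tested and 0 passed, with a median of -0.24, 3 above 0 and 6 below. At an unadjusted p under 0.05, 0 were higher (10.1% of all tested genes) and 3 lower (10.3% of all tested genes). These 3 were TFAM, which packages mitochondrial DNA (-0.52), YY1 (-0.41) and TFB2M, a mitochondrial transcription factor (-0.36). The groups of TFB2M overlapped. MYC had the lowest difference of the 9, -0.55, also with overlapping groups. POLRMT, PPRC1 and ESRRA, the 3 above 0, differed by 0.17, 0.13 and 0.06. NRF1, GABPA, PPARGC1A and PPARGC1B were detected on 0 arrays.

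Across members, the difference declined with the mass of the encoded protein given in the row descriptions. Masses were given for 32 of 36 tested members. NDUFA13, which was called, NDUFA12, NDUFAF1 and NDUFAF2 had none and are left out of these values. The median difference was 0.93 over 9 members of 10 kDa or less, 0.55 over 14 above 10 and up to 20 kDa, 0.33 over 5 above 20 and up to 30 kDa, and -0.05 over 4 above 30 kDa. Spearman's rho was -0.509 over these 32 genes, which share the same 6 arrays. Between mass and the difference of control 1 minus control 2 it was -0.340 over the same genes. Within the accessory class, the heaviest tested proteins, NDUFA10 of 42 kDa and NDUFA9 of 39 kDa, were among the 5 lowest differences. At the light end, NDUFB1 of 7 kDa and NDUFV3 of 10 kDa differed by 0.13 and 0.12. They measured 4.27 to 4.66 and 4.65 to 5.12, near background, where the offset of 16 narrows differences. Whether they are exceptions to the decline cannot be told from these values.

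**Figure D3:**
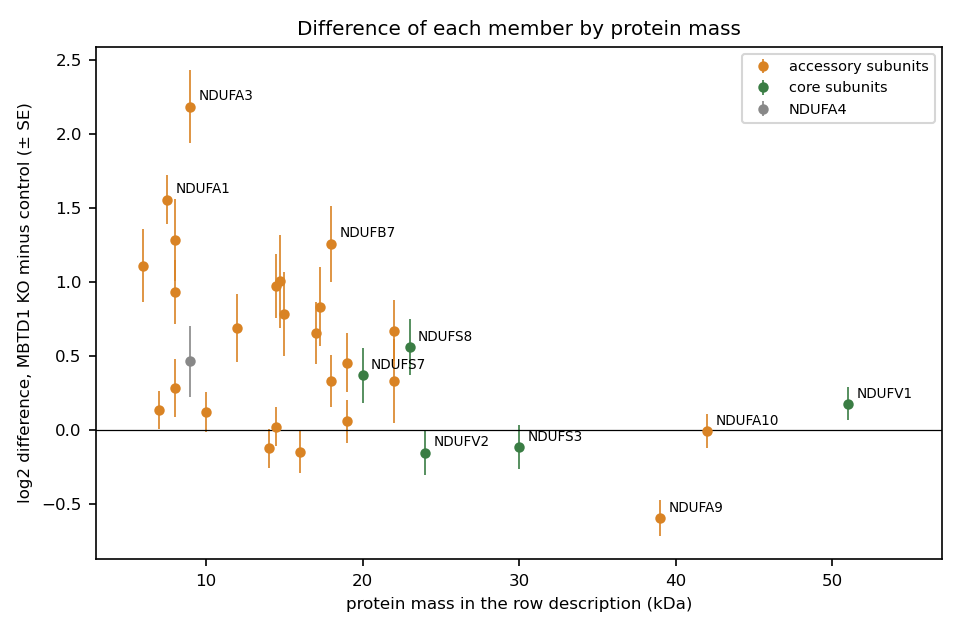
The horizontal axis gives the protein mass in kDa from the row description and the vertical axis the log2 difference, MBTD1 KO minus control, with bars of 1 standard error; orange points are accessory subunits, green points core subunits and the grey point NDUFA4. Differences above 1 occur only at or below 18 kDa among the genes drawn, and the 3 proteins drawn above 30 kDa lie between -0.60 and 0.18. NDUFA13 has no mass in its description and is not drawn.

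Members were also set in classes of gene span in RefSeq, beside other tested genes. The 5 members with a span under 5 kb (NDUFA3, NDUFA1, NDUFA2, NDUFB11 and NDUFB10) had a median difference of 1.28, against 0.08 in 1911 other tested genes of that span. In all 5 the groups did not overlap, with MBTD1 KO higher, which was so for 25% of those other genes. At 5 to 10 kb the median was 0.46 over 10 members and 0.03 over 1242 other genes. At 10 to 20 kb it was 0.35 over 12 members and -0.01 over 1789 other genes. At 20 to 50 kb the median was -0.05 over 6 members and -0.07 over 2829 other genes. Over 50 kb it was 0.33 over 3 members (NDUFAF2, NDUFS4 and NDUFA10), out of the order of the shorter classes, and -0.09 over 3378 other genes. Spearman's rho between span and difference was -0.425 over 36 members and -0.240 over 11149 other tested genes with a span (85% of them). With control 1 minus control 2 in place of that difference, rho was -0.339 in members and -0.320 in the other genes, so the trend with span ran between those controls as well. The other genes under 5 kb had a median deviation of 0.101, 0.0985 and 0.0966 in MBTD1 KO clones and of 0.0782, -0.101 and 0.0216 in control clones. In those medians, too, MBTD1 KO clones were highest and control 2 lowest, and what gene span or protein size has to do with the differences was not tested.

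**Figure D4:**
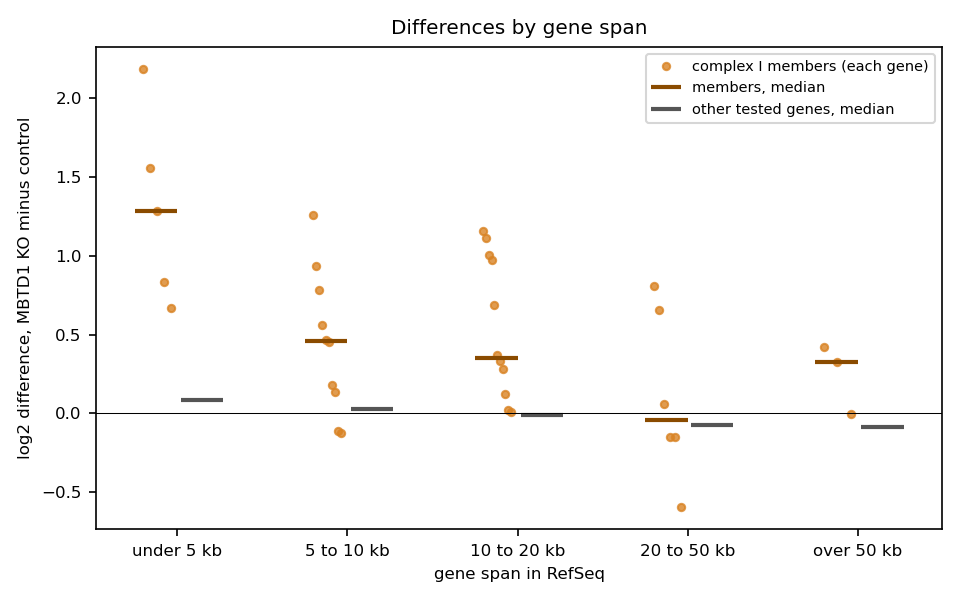
The horizontal axis gives classes of RefSeq gene span and the vertical axis the log2 difference, MBTD1 KO minus control; orange points are the 35 members drawn, brown bars the medians of all 36 and grey bars the medians of the other tested genes. Members under 5 kb lie between 0.67 and 2.19, while the grey medians run from 0.08 under 5 kb to -0.09 over 50 kb.

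The control clones differed among themselves along the same genes. In 30 of 36 members control 1 was above control 2, against only 6168 of all 13145 tested genes. The median of this gap was 0.74, against -0.02 for all tested genes. In 27 of 36 members the order was control 1, control 3, control 2, against only 2989 of all 13145 tested genes. The median gap of control 1 over control 2 was 0.84 for accessory and 0.41 for core subunits. Control 1 and control 2 were 1.45 apart for NDUFA11, 1.22 for NDUFB11 and 1.18 for NDUFB7, and for NDUFB3, NDUFS5, NDUFB8 and NDUFB9 at least 1 MBTD1 KO clone lay below control 1. Whatever differs between control 1 and control 2 is not named in the labels, and its part in the knockout differences was not tested.

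Members on chromosome 19 had large differences. The 6 tested members there were NDUFA3, NDUFB7, NDUFA13, NDUFA11, NDUFA7 and NDUFS7, with a median difference of 1.08, and in 5 of them the groups did not overlap. The chromosome of NDUFA13, blank in the array table, is from RefSeq. The 30 members elsewhere had a median of 0.33, and 748 other tested genes of chromosome 19 had a median of 0.05, with 19.5% of them not overlapping and higher. The gap of control 1 over control 2 had a median of 0.94 in the chromosome 19 members. The 22 accessory subunits on other chromosomes had a median of 0.39.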

How the data were processed

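Total RNA of 6 U2OS clones, 3 MBTD1 KO and 3 control, was labelled with biotin and measured on Illumina bead arrays. The authors deposited mean bead intensity per gene row, not normalized, with detection p-values, standard errors over beads and a score for depth, the mean number of beads (array medians 20 to 22); rows with fractional bead numbers average several probes. A deposited log2 table equalled quantile normalized log2 intensities within 4.99e-09. Lumi and limma are named in the submitters' processing notes, with no version.

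Background was corrected by normexp in limma 3.58.1 (R 4.3.3), fitted to 27408 rows with a detection p on a grid of 770 steps (tolerance 0.001 of a step) on every array, with an offset of 16. The log2 values were then quantile normalized. Genes with detection p under 0.05 on at least 3 arrays were tested by lmFit and eBayes without covariates, 2-sided, with 95% intervals from the same fit; 92 spike-in rows were left out. Another 0 columns of per-sample values were present. The number of arrays limits precision.

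Members, classes, lists, mass and span classes and motifs were chosen with earlier results of these data known. The rule names every member and gives clone values for members past the threshold, core subunits, and the 8 highest (the 3 past the threshold among them) and 5 lowest differences of accessory subunits and assembly factors. The values of 1 core subunit are not reported here, though it is counted in the summaries. A planned comparison by protein length used masses in the row descriptions and RefSeq gene span (GRCh38.p14) instead. The fit was tested on simulated data with 200 changed genes. There were 15 alternatives: background, offset, normalization, filter, array weights, replicate block and leaving out each clone. Deviations of same-numbered clones had correlations of 0.0656, 0.0153 and 0.0187. Without such values for clones of different number, these do not settle whether the numbers pair the clones.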

Additional observations from a re-analysis of the deposited data

How the results depend on the processing

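Accessory subunits kept a median difference above that of core subunits in every setting run. The number of members past the threshold, 3 as reported, was 0 with limma's default background fit (14 higher and 1 lower at an unadjusted p under 0.05) and 0 without a filter (19 higher and 1 lower), 5 with cyclic loess, 13 after scaling to a common median, 9 (8 higher, 1 lower) with a detection p under 0.01 on all 6 arrays, 16 (15 higher, 1 lower) with array quality weights, and 0 to 15 when 1 clone was left out (14 higher and 1 lower without control 1). The member called lower was NDUFA9 in each. Over all genes, 207 passed as reported (158 higher, 49 lower), 0 with the default background fit (2260 at an unadjusted p under 0.05), 64 in the deposited log2 table, 61 with an offset of 50, 585 after scaling to a common median (553 higher, 32 lower), 288 with cyclic loess (249 higher, 39 lower), 4 without a filter, 361 with the stricter filter, 1392 with array weights and 4 to 581 without 1 clone. With the clone number as replicate block 122 genes passed, and the 3 members kept their calls (limma adjusted p = 0.0299, 0.032 and 0.034). NDUFA13 also missed the threshold in the deposited log2 table (limma adjusted p = 0.0676) and with an offset of 50 (0.0654). Leaving out 1 clone gave accessory minus core values of 0.42 to 0.79. The assembly factor median was 0.42 without a filter, which adds NDUFAF3. Some differences turned sign. After scaling to a common median NDUFV2 was at 0.0098, NDUFS3 at 0.10, NDUFB5 at 0.13 and NDUFA10 at 0.0086. NDUFA10 was at 0.0099 with cyclic loess and 0.017 with array weights. Without 1 clone NDUFA10 ran from -0.080 to 0.034, NDUFS3 from -0.25 to 0.0028 and NDUFAF1 from -0.065 to 0.15. Fewer or more genes tested change the filter's counts; the cause of the other changes was not tested.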
